A study of Mus musculus with 9 samples.

Results

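The genes examined here are 10 that are recurrently mutated in human myeloproliferative neoplasms, most of them alongside JAK2: Tet2, Dnmt3a, Asxl1, Ezh2, Idh1, Idh2, Cbl, Sh2b3, Nf1 and Calr. They were taken by symbol from a table of 38215 genes, and 10 of 10 were found and passed the filter on low counts that left 14944 genes for testing. RNA came from the bone marrow of C57BL/6J mice, from cells sorted for Sca1 and Kit and against lineage markers (LSK cells), the fraction that holds haematopoietic stem cells and multipotent progenitors. All samples had the genotype Jak2V617F, an activating change in the kinase Jak2, all received tamoxifen, and the sorted cells carried both GFP and mCherry. The 5 control samples have EV in their titles, which the labels do not spell out, and Jak2V617F as their whole genotype. The 4 others have the genotype Jak2V617F-sgZrsr2 and are described by the submitters as having lost Zrsr2, a factor that recognises 3′ splice sites of the minor spliceosome. The titles number the samples m1 to m5, called mice here. Neither the promoter that drives the Jak2 allele, the age of the mice nor the design of the guide is given in the sources used here, and nothing says that the mice were housed or processed separately, so p-values measure the spread between these samples.

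These genes act in a few connected pathways. Dnmt3a adds methyl groups to unmethylated DNA, and Tet2 starts their removal by oxidising 5-methylcytosine with 2-oxoglutarate, the product of the isocitrate dehydrogenases Idh1 (cytosol) and Idh2 (mitochondria). Ezh2 is the catalytic subunit of Polycomb repressive complex 2 (PRC2), which methylates lysine 27 of histone H3, and Asxl1 is the partner of the deubiquitinase Bap1 and is also tied to Polycomb silencing. Cbl is a ubiquitin ligase that sends active receptors and kinases to degradation, Sh2b3 (Lnk) is an adaptor that dampens cytokine signalling through Jak2, and Nf1 is a GTPase-activating protein that switches Ras off. Calr encodes calreticulin, a calcium-binding chaperone of the endoplasmic reticulum, which is mutated in some patients whose JAK2 is intact. The comparison asked whether the transcript levels of these genes differed when Zrsr2 was targeted in cells that already carried mutant Jak2. The values count transcripts of a gene and do not show mutations in it.

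The libraries held 23238264 to 45585531 counts. Zrsr2 itself was at 50.6 to 62.2 CPM (counts-per-million, scaled with TMM factors) with EV and at 31.7 to 44.4 CPM with sgZrsr2, with no overlap. Sca1 (Ly6a) was at 14.8 to 49.3 CPM, Kit at 247 to 632 CPM and Cd34 at 544 to 705 CPM. T-cell markers Cd3e and Cd3g stayed at or below 0.0873 CPM, but 6 of 10 lymphoid markers reached 1 CPM in at least 1 library. The summed level of these lymphoid markers was 65.6 to 121 CPM. Among them Nkg7 reached 92.7 CPM, Cd79b 23.7 CPM, Cd79a 9.85 CPM and Cd4 1.41 CPM. Some libraries stood apart. Of 9630 genes that averaged 10 CPM or more, EV mouse 3 lay alone above its group in 448 and alone below it in 202, against 6 to 92 and 0 to 48 for the other EV libraries. EV mouse 5 and sgZrsr2 mice 3 and 5 had Car1, an early erythroid gene, at 25.4, 39.3 and 35.5 CPM, against at most 0.422 CPM in the other 6 libraries. In the same 3 libraries the summed level of 10 erythroid markers was 61.3 to 138 CPM, against 17.3 to 49.5 CPM. Hbb-bt, 1 of these 10, did not follow: it was at 8.06, 15.4 and 5.59 CPM in the 3 libraries. Its highest values, 46.2 and 42.3 CPM, were in sgZrsr2 mice 1 and 2 and made up most of their sums (49.5 and 45.6 CPM). SgZrsr2 mice 1 and 2 were the most alike of all pairs within a group, by chi-square over degrees of freedom (15 over 2396 genes, against 51.1 to 561 for the other pairs). This is more than the noise of independent reads, but these reads were amplified by PCR. What was deposited does not show whether the 2 libraries came from separate animals. They were kept as separate samples by their labels, and averaged into 1 library as an alternative. These 2 libraries also had the lowest totals, 23238264 and 25857723 counts, against 32961362 or more in the others. They had the fewest genes with a count of 1 or more (16169 and 16819, against 18354 or more).

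Between genes, levels were compared per kilobase of merged exons, scaled to the same total within each library (a TPM scale). Calr was by far the most abundant of the 10, at 1102 to 1573 over the 9 libraries (mean 1286), above 99.2% of the genes tested. Idh2 came next at 267 to 335 (mean 295). Both kept their rank in 9 of 9 libraries. Asxl1 (mean 80.8), Sh2b3 (77.9) and Ezh2 (59.2) formed a middle group whose order changed between libraries: Asxl1 exceeded Sh2b3 in 7 of 9 libraries, and Sh2b3 exceeded Ezh2 in 7 of 9. Idh1 (30.8), Cbl (23.5), Dnmt3a (20.5) and Tet2 (12.6) followed. Idh1 exceeded Cbl in 8 of 9 libraries, Cbl exceeded Dnmt3a in 8 of 9, and Dnmt3a exceeded Tet2 in 7 of 9, so these neighbours did not separate in every library. Nf1 was the lowest of the 10 in 9 of 9 libraries (3.79 to 7.11, mean 5.70). The mean of Calr was 225 times that of Nf1 on this scale. Merged exons can exceed the length of the transcript that is made, so these levels are approximate.

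**Figure D1:**
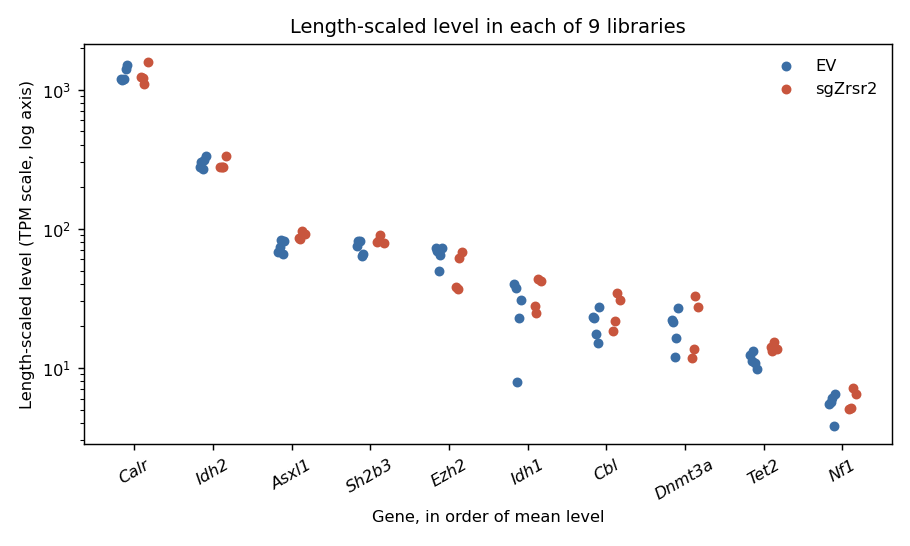
Length-scaled level of the 10 genes (TPM scale, log axis), 1 point per library, EV in blue and sgZrsr2 in red. Calr (1102 to 1573) and Idh2 (267 to 335) lie apart from the rest in every library, and Nf1 (3.79 to 7.11) lies lowest.

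Between the groups, Ezh2 was the one gene of the 10 with an unadjusted p under 0.05, lower with sgZrsr2 by a log2 fold change of -0.44. Of all 14944 genes 6.85% had such a p (1024 genes, with 3.87% higher and 2.98% lower). After Benjamini-Hochberg adjustment over all genes 0 of the 10, and 0% of all, were under 0.05 by edgeR's quasi-likelihood test. The DESeq2 Wald test called 16 genes at that threshold, with 0 of the 10 among them. In 0 of the 10 genes were the groups apart without overlap in TMM-scaled CPM, a pattern shown by 3.06% of all genes (1.75% higher and 1.32% lower). Ezh2 was also the 1 gene of the 10 with an exact permutation p under 0.05, as 7.89% of all genes had. Positive log2 fold changes were found in 7 and negative ones in 3 (median 0.07), against 48.5% and 51.5% of all genes (median -0.01). With limma-voom and quality weights 3 of the 10 (Tet2, Asxl1 and Ezh2) had an unadjusted p under 0.05, where 17.1% of all genes did. The edgeR fit took sgZrsr2 mice 1 and 2 as separate samples. Its 95% intervals, set for 1 gene at a time without adjustment, show how precise each estimate was under that model. They were narrowest for Idh2, at 0.792 to 1.1 times the EV level, and widest for Idh1, at 0.713 to 1.99 times.

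**Figure D2:**
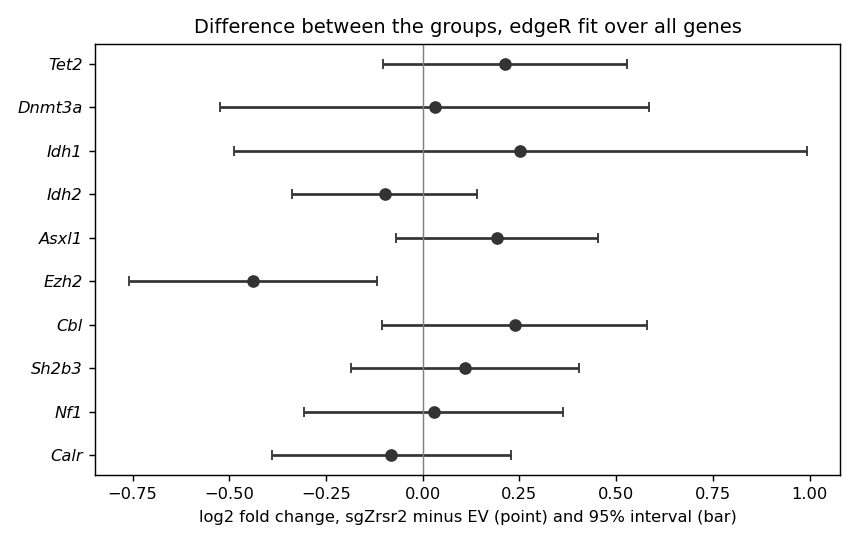
Log2 fold change of each gene, sgZrsr2 minus EV, with its 95% interval from edgeR's quasi-likelihood fit over all genes. The interval of Ezh2 (-0.76 to -0.12) leaves out 0, and those of the other 9 genes include it.

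**Figure D3:**
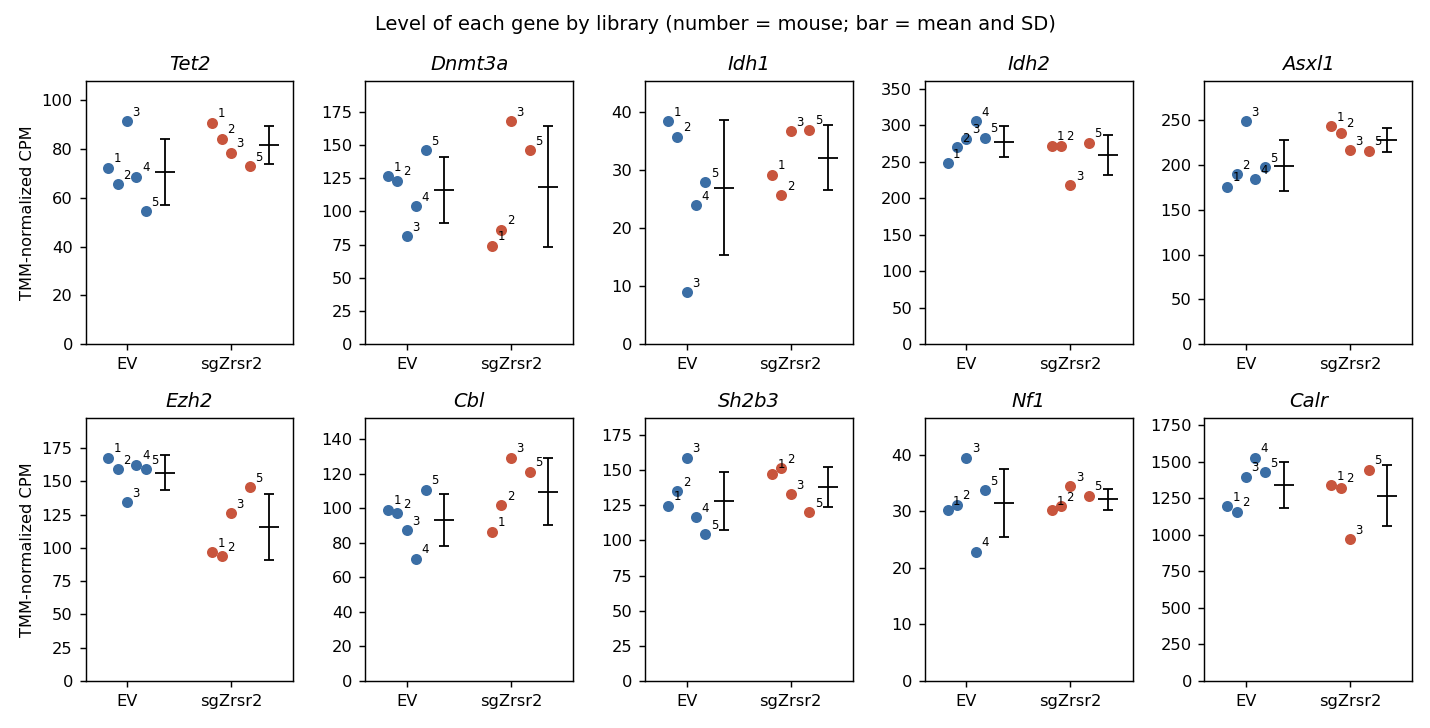
TMM-normalized CPM of the 10 genes in each library, with the mouse number beside the point and the mean and SD of the group at its right. Ezh2 lies lower in the sgZrsr2 group with 1 pair of libraries crossing, and Idh1 of EV mouse 3 (8.98 CPM) lies below all other libraries.

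Ezh2 (ENSMUSG00000029687; GRCm38 chromosome 6, 47530274 to 47595341, minus strand) measured 168, 159, 134, 163 and 159 CPM over EV mice 1 to 5. Mice 1, 2, 3 and 5 with sgZrsr2 had 96.7, 93.5, 126.2 and 146 CPM. With this TMM scaling sgZrsr2 mice 1, 2 and 3 lay below all EV libraries. SgZrsr2 mouse 5 lay above EV mouse 3, so the groups overlapped by that pair. The overlap was wider on other scales. With CPM from library totals alone, sgZrsr2 mice 3 and 5 (135 and 152 CPM) both lay above EV mouse 3 (120 CPM). On the TPM scale they did too (61.9 and 68.5 against 49.3), and sgZrsr2 mouse 5 also exceeded EV mouse 4 (64.2). EV libraries averaged 157 ± 12.95 CPM (SD, n = 5) and sgZrsr2 libraries 116 ± 24.9 CPM (SD, n = 4; two-sided exact permutation p = 0.0317). The level with sgZrsr2 was 0.738 times that with EV (95% interval 0.591 to 0.922; log2 fold change -0.44, SE 0.15). In edgeR the unadjusted p was 0.0121 and the adjusted p 0.714, so Ezh2 did not pass over all genes. The log2 fold change was -0.36 with sgZrsr2 mice 1 and 2 averaged into 1 library, and -0.70 without EV mouse 5 and sgZrsr2 mice 3 and 5. The exact permutation p did not stay under 0.05: it was 0.0714 with mice 1 and 2 averaged, 0.0571 without any 1 of EV mice 1, 2, 4 or 5, and 0.0714 without any 1 of sgZrsr2 mice 1, 2 or 3. Without the 3 libraries it was 0.133, the smallest that 4 against 2 samples can give. In that last fit, and without EV mouse 3 or sgZrsr2 mouse 5, the groups of Ezh2 no longer overlapped with TMM scaling. Each of these fits leaves out a library of the crossing pair, so the loss of overlap follows from that. Without EV mouse 3, 5.4% of all genes did not overlap (2.73% higher, 2.67% lower) and 7.44% had an unadjusted p under 0.05. Of all genes 23.2% (12.6% higher, 10.7% lower) did not overlap without the 3 libraries and 11% had an unadjusted p under 0.05. Without sgZrsr2 mouse 5, 7.1% did not overlap (3.71% higher, 3.39% lower) and 7.58% had such a p. The antisense gene Gm26625 overlaps 174 exonic bases of Ezh2, and strandedness is not stated. As the RNA is from a sorted pool, fewer cells with much Ezh2 and less Ezh2 per cell cannot be told apart.

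Ezh2 is well known as a gene of dividing cells, and its promoter is shown because it holds a motif that E2F factors, which drive the cell cycle, bind. The sequence is from RefSeq (GRCm38.p6, chr6:47594981-47595280, minus strand, 250 bases before to 50 after the start), with TTTGGCGC in capitals.
Ezh2: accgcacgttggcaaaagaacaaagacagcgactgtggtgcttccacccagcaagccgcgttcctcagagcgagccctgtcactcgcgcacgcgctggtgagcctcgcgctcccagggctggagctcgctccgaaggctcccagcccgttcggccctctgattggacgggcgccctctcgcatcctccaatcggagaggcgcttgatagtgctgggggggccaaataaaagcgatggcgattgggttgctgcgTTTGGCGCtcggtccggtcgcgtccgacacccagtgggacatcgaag
The search covered TTTGGCGC and TTTCCCGC on both strands. TTTGGCGC was found at bases 254 to 261 of the Ezh2 window and in 0.514% of 32851 promoter windows of the same length, and TTTCCCGC was not found in this window and was in 1.07% of all. In no other of the 10 genes' windows was either found. A match in letters is a description and not a measured site. Of 10 genes of dividing cells, listed after the values of Ezh2 were seen, 8 had negative and 2 positive log2 fold changes (median -0.17), and 0 had an unadjusted p under 0.05. Their summed level was 3592, 3765, 3920, 3809 and 4305 CPM over EV mice 1 to 5, and 3644, 3522, 2991 and 4003 CPM with sgZrsr2 (mice 1, 2, 3 and 5). The groups overlapped, and sgZrsr2 mouse 3 had the lowest sum of the 9. Their part in the level of Ezh2 was not tested.

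Ezh1, the paralog of Ezh2 that prevails in resting cells, was at 27.6 to 46.8 CPM with EV and at 37.2 to 67.3 CPM with sgZrsr2 (log2 fold change 0.36, SE 0.20; edgeR unadjusted p = 0.109). Its highest value, 67.3 CPM, was that of sgZrsr2 mouse 3, and without this library the log2 fold change of Ezh1 was 0.14. It was 0.071 with limma-voom and 0.046 without EV mouse 5 and sgZrsr2 mice 3 and 5. On the TPM scale Ezh2 was 3.99, 4.47, 5.42, 5.57 and 4.51 times Ezh1 in EV mice 1 to 5. It was 2.85, 2.80, 2.09 and 3.39 times Ezh1 in sgZrsr2 mice 1, 2, 3 and 5. All sgZrsr2 ratios lay below all EV ratios. This ratio was formed after the values were seen and was not tested. The share of other gene pairs whose ratios do not overlap between the groups was not computed. The other PRC2 subunits and H3K27 demethylases, a list of 12 genes that includes Ezh1, were evenly split, with 6 positive and 6 negative log2 fold changes (median 0.00). Of these, 1 had an unadjusted p under 0.05. This was Kdm6a (Utx), an X-linked H3K27 demethylase that works against Ezh2, at 40.9 to 61.3 CPM with EV and 54.5 to 81.4 CPM with sgZrsr2 (log2 fold change 0.34, SE 0.15; edgeR unadjusted p = 0.0457, adjusted p = 0.714). The core subunits Eed, which reads the mark, and Suz12, which holds the complex together, had log2 fold changes of -0.14 (SE 0.12) and -0.10 (SE 0.18).

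Asxl1 (ENSMUSG00000042548; chromosome 2, 153345845 to 153404007, plus strand) measured 176, 190, 249, 185 and 198 CPM over EV mice 1 to 5. The sgZrsr2 values, for mice 1, 2, 3 and 5, were 243, 236, 217 and 216 CPM. With TMM scaling the 4 sgZrsr2 libraries lay above 4 of the EV libraries, and EV mouse 3 had the highest value of all. This gave a log2 fold change of 0.19 (SE 0.12; edgeR unadjusted p = 0.132, adjusted p = 0.728; exact permutation p = 0.127). Without EV mouse 3 the groups did not overlap and the log2 fold change was 0.28 (edgeR unadjusted p = 0.0129, adjusted p = 0.661). In that fit 5.4% of all genes did not overlap (2.73% higher, 2.67% lower) and 7.44% had an unadjusted p under 0.05. With CPM from library totals alone, all sgZrsr2 libraries (226 to 235 CPM) lay above all EV libraries (179 to 223 CPM). They also did on the TPM scale (84.1 to 95.4 against 65.4 to 82.2). The share of all genes without overlap on these 2 scales was not computed. The expected counts of Asxl1 were whole in 2 of 9 libraries, sgZrsr2 mice 1 and 2. In the others RSEM divided some reads between Asxl1 and other genes. Its 5′ end overlaps the antisense gene 2500004C02Rik by 197 bases, and strandedness is not stated. Asxl2, its paralog, was at 101.7 to 129.8 CPM with EV and 109 to 119 CPM with sgZrsr2 (log2 fold change 0.07, SE 0.10). Of 10 Asxl relatives and Bap1 partners, 9 were tested, 7 with positive and 2 with negative log2 fold changes, and Foxk2 had an unadjusted p under 0.05. Foxk2, a forkhead factor that recruits Bap1, was at 104 to 127 CPM with EV and 86.9 to 108 CPM with sgZrsr2 (log2 fold change -0.25, SE 0.10; edgeR unadjusted p = 0.0332). Bap1 itself had a log2 fold change of 0.01 (SE 0.12).

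Tet2 (ENSMUSG00000040943; chromosome 3, 133463679 to 133544390, minus strand) measured 72.2, 65.4, 91.3, 68.6 and 54.5 CPM over EV mice 1 to 5. With sgZrsr2, mice 1, 2, 3 and 5 had 90.8, 84.3, 78.5 and 72.9 CPM. As for Asxl1, the 4 sgZrsr2 libraries lay above 4 of the EV libraries and EV mouse 3 was the highest. Its log2 fold change was 0.21 (SE 0.14; edgeR unadjusted p = 0.164, adjusted p = 0.737; exact permutation p = 0.175). Without EV mouse 3 it was 0.32 (edgeR unadjusted p = 0.0213, adjusted p = 0.661) and the groups did not overlap, as in 5.4% of all genes. Without EV mouse 5 the log2 fold change of Tet2 was 0.13. The antisense gene Gm42567 overlaps 43 exonic bases of Tet2. Tet3 was the most abundant of the Tet genes on the TPM scale (mean 24.9, against 12.6 for Tet2 and 8.42 for Tet1). Tet1 had a log2 fold change of 0.52 (SE 0.33) and Tet3 one of 0.27 (SE 0.19), and their adjusted p in edgeR was 0.732 and 0.744.

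Dnmt3a (ENSMUSG00000020661; chromosome 12, 3806007 to 3914443, plus strand) varied widely within both groups. It measured 126.3, 123, 81.3, 104 and 146 CPM over EV mice 1 to 5. Mice 1, 2, 3 and 5 with sgZrsr2 had 74.1, 86.3, 168 and 146 CPM. The sgZrsr2 group thus held both the lowest and the highest library of the 9, and it averaged 119 ± 45.5 CPM (SD, n = 4) against 116 ± 24.6 CPM for the EV group (SD, n = 5). The log2 fold change was 0.03 (SE 0.25, 95% interval -0.52 to 0.59; edgeR adjusted p = 0.981). Its sign turned with the libraries used: it was -0.19 without sgZrsr2 mouse 3, and -0.43 without EV mouse 5 and sgZrsr2 mice 3 and 5 (edgeR unadjusted p = 0.0582). In those 3 libraries, the ones with high Car1, Dnmt3a was at 146 to 168 CPM, above the 74.1 to 126.3 CPM of the other 6. The summed level of 10 megakaryocyte markers was 360 CPM in EV mouse 5 and 440 and 520 CPM in sgZrsr2 mice 3 and 5. It was 156 to 304 CPM in the other 6. Itga2b, 1 of these 10, did not follow throughout, with 263 CPM in EV mouse 4 and 199 CPM in EV mouse 5. The part of the erythroid and megakaryocyte markers in the level of Dnmt3a was not tested. Its antisense gene Dnmt3aos overlaps 133 exonic bases. Dnmt3b, the other de novo methyltransferase, exceeded Dnmt3a on the TPM scale (mean 57.8 against 20.5). This order depends on the length scaling, with 16642 bases of merged exons for Dnmt3a. Before it, Dnmt3b averaged 106 CPM with EV and 103 CPM with sgZrsr2, below Dnmt3a. The log2 fold change of Dnmt3b was -0.04 (SE 0.13). The maintenance enzyme Dnmt1 had one of 0.07 (SE 0.18).

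Idh1 (ENSMUSG00000025950; chromosome 1, 65158616 to 65186479, minus strand) measured 38.5, 35.9, 8.98, 24.0 and 28.0 CPM over EV mice 1 to 5. The sgZrsr2 values, for mice 1, 2, 3 and 5, were 29.3, 25.7, 36.8 and 37.0 CPM. EV mouse 3 had 288 counts of Idh1, where the other libraries had 642 to 1622, and the highest library was 4.29 times the lowest. The sgZrsr2 values lay within the range of the EV values. The log2 fold change was 0.25 (SE 0.34; edgeR unadjusted p = 0.469), and it was 0.03 (SE 0.18) without EV mouse 3 and 0.41 without EV mouse 1. Idh2 (ENSMUSG00000030541; chromosome 7, 80094846 to 80115392, minus strand) was steady by contrast, with 248, 270, 282, 306 and 283 CPM over EV mice 1 to 5. Mice 1, 2, 3 and 5 with sgZrsr2 had 272, 272, 218 and 276 CPM. Only sgZrsr2 mouse 3 lay below the EV range. For Idh2 the log2 fold change was -0.10 (SE 0.11; edgeR unadjusted p = 0.387). It was -0.023 without sgZrsr2 mouse 3 and -0.063 without EV mouse 4. In EV mouse 3, where Idh1 was lowest, Idh2 was near the middle of its group. Of 12 further genes of DNA methylation and its cofactors, 6 had positive and 6 negative log2 fold changes (median 0.02), and 0 had an unadjusted p under 0.05. The smallest was that of Idh3a, a subunit of the NAD-dependent isocitrate dehydrogenase of the citric acid cycle (log2 fold change -0.42, SE 0.21; edgeR unadjusted p = 0.0644).

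Cbl (ENSMUSG00000034342; chromosome 9, 44149262 to 44234046, minus strand) measured 99.2, 97.3, 87.3, 70.8 and 111 CPM over EV mice 1 to 5. With sgZrsr2, mice 1, 2, 3 and 5 had 86.4, 102, 129 and 121 CPM. For Cbl the log2 fold change was 0.24 (SE 0.16; edgeR unadjusted p = 0.156, exact permutation p = 0.19). As for Dnmt3a, the 3 libraries with high Car1 were the highest, at 111 to 129 CPM against 70.8 to 102 CPM, and without them the log2 fold change of Cbl was 0.10. It was 0.15 without EV mouse 4 and likewise without sgZrsr2 mouse 3. Cblb, its paralog and likewise a ubiquitin ligase of receptor signalling, was at 41.4, 39.2, 46.7, 30.3 and 37.2 CPM over EV mice 1 to 5, and with sgZrsr2 at 58.3, 60.6, 51.4 and 42.2 CPM (mice 1, 2, 3 and 5). Its log2 fold change was 0.45 (SE 0.15; edgeR unadjusted p = 0.0120, adjusted p = 0.714). The groups of Cblb overlapped only in that EV mouse 3 exceeded sgZrsr2 mouse 5. Unlike Cbl, Cblb was highest in sgZrsr2 mice 1 and 2. The difference between the 2 paralogs was not tested.

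Sh2b3 (ENSMUSG00000042594; chromosome 5, 121815488 to 121836859, minus strand) measured 125, 135, 159, 117 and 104 CPM over EV mice 1 to 5. Mice 1, 2, 3 and 5 with sgZrsr2 had 147, 152, 133 and 120.2 CPM. The groups overlapped, with a log2 fold change of 0.11 (SE 0.13; edgeR unadjusted p = 0.43). Leaving out 1 library moved it between 0.046 (without EV mouse 5) and 0.19 (without EV mouse 3). Its 3′ end overlaps Atxn2, on the other strand, by 99 exonic bases. Its relative Sh2b1, an adaptor that enhances rather than dampens Jak2 signalling in metabolic tissues, was at 109 to 137 CPM with EV and 136 to 145 CPM with sgZrsr2. EV mouse 5 alone exceeded the lowest sgZrsr2 library (log2 fold change 0.24, SE 0.10; edgeR unadjusted p = 0.0315). Sh2b2 had a log2 fold change of -0.16 (SE 0.18). Of the 12 listed genes of cytokine signal control, 11 were tested, 5 with positive and 6 with negative log2 fold changes (median -0.03). Of these, Cblb and Sh2b1 had an unadjusted p under 0.05. Jak2 was at 54.7 to 87.6 CPM with EV and 84.7 to 93.5 CPM with sgZrsr2 (log2 fold change 0.27, SE 0.13; edgeR unadjusted p = 0.0582).

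Nf1 (ENSMUSG00000020716; chromosome 11, 79339693 to 79581612, plus strand) measured 30.1, 31.1, 39.4, 22.8 and 33.7 CPM over EV mice 1 to 5. The sgZrsr2 values, for mice 1, 2, 3 and 5, were 30.2, 30.9, 34.4 and 32.7 CPM, inside the EV range. For Nf1 the log2 fold change was 0.03 (SE 0.15, 95% interval -0.31 to 0.36; edgeR adjusted p = 0.967). Evi2a, Evi2b and Omg lie in its introns on the other strand and share no exonic base with it. Of 12 other brakes on Ras (GTPase-activating, Spred and Sprouty proteins and Lztr1), 8 had positive and 4 negative log2 fold changes (median 0.14), and 0 had an unadjusted p under 0.05. The smallest was that of Rasa1, p120 RasGAP (log2 fold change 0.16, SE 0.10; edgeR unadjusted p = 0.133).

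Calr (ENSMUSG00000003814; chromosome 8, 84841850 to 84846934, minus strand) measured 1195, 1158, 1398, 1525 and 1428 CPM over EV mice 1 to 5. With sgZrsr2, mice 1, 2, 3 and 5 had 1338, 1322, 969 and 1443 CPM. SgZrsr2 mouse 3 alone lay below the EV range, and without it the log2 fold change turned from -0.08 (SE 0.14; edgeR adjusted p = 0.891) to 0.03. The 95% interval was 0.763 to 1.17 times the EV level. Hspa5 (BiP), the main Hsp70 chaperone of the endoplasmic reticulum and a marker of its stress response, had a larger estimate. EV mice 1 to 4 had 1395, 1338, 2030 and 1416 CPM, and EV mouse 5 had 908 CPM. With sgZrsr2 it read 949.8, 942, 709 and 711 CPM (mice 1, 2, 3 and 5). SgZrsr2 mice 1 and 2 exceeded EV mouse 5, so the groups overlapped. The log2 fold change of Hspa5 was -0.78 (SE 0.21; edgeR unadjusted p = 0.00347, adjusted p = 0.714), and it was -0.62 without EV mouse 3, which had the highest value.

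The promoters of Calr and Hspa5 are shown because both hold the endoplasmic reticulum stress response element, the motif through which the factors Atf6 and Nfya raise chaperone genes when proteins misfold. Both are from RefSeq (GRCm38.p6; Calr chr8:84846882-84847181, minus strand; Hspa5 chr2:34771840-34772139, plus strand), and capitals mark matches of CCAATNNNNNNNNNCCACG on either strand.
Calr: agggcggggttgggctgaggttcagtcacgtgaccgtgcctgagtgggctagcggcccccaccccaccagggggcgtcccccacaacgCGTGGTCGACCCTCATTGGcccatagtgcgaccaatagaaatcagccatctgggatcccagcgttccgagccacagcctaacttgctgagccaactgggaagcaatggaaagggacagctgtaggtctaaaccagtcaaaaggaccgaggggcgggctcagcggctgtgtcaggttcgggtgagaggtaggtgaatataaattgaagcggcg
Hspa5: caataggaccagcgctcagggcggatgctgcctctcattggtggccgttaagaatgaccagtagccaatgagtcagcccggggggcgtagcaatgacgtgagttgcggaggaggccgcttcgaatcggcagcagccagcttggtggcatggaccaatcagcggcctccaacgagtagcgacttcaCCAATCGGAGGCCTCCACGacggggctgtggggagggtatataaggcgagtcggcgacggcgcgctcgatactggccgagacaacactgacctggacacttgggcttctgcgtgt
The element was on the reverse strand at bases 89 to 107 of the Calr window and on the forward strand at bases 186 to 204 of the Hspa5 window. It was found in 39 of 32851 windows of this length (0.119%). A match in letters is again no measured site. In sgZrsr2 mice 1 and 2 Calr was inside its EV range, while Hspa5 was below 4 of the 5 EV libraries. Of the 12 listed genes of protein folding in the endoplasmic reticulum, 10 had negative and 2 positive log2 fold changes (median -0.19, against -0.01 for all genes). Hspa5 was the 1 with an unadjusted p under 0.05. Canx, calnexin, the membrane-bound relative of calreticulin, had a log2 fold change of -0.13 (SE 0.10; edgeR unadjusted p = 0.229). Pdia3, which works with both on glycoproteins, had one of -0.16 (SE 0.14).

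Of 24 further genes mutated in myeloid neoplasms, 13 had positive and 11 negative log2 fold changes (median 0.01), and 3 had an unadjusted p under 0.05. The first was Zrsr2 itself (log2 fold change -0.46, SE 0.12; edgeR unadjusted p = 0.00321). The second was Kmt2c, listed in the table as Mll3, a histone H3 lysine 4 methyltransferase. It was at 160, 138, 129.9, 98.6 and 150 CPM over EV mice 1 to 5, and with sgZrsr2 at 190, 198, 238 and 162 CPM (mice 1, 2, 3 and 5). All sgZrsr2 libraries lay above all EV libraries, as in 1.75% of all genes (log2 fold change 0.54, SE 0.16; exact permutation p = 0.0159; edgeR adjusted p = 0.714). The third was Gata2, a transcription factor of stem cells and megakaryocytes, at 176 to 301 CPM with EV and 279 to 376 CPM with sgZrsr2 (log2 fold change 0.46, SE 0.16; edgeR unadjusted p = 0.0185). Over all 7 lists of related genes, 8 of 92 tested had an unadjusted p under 0.05, near the 6.85% of all genes.

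**Figure D4:**
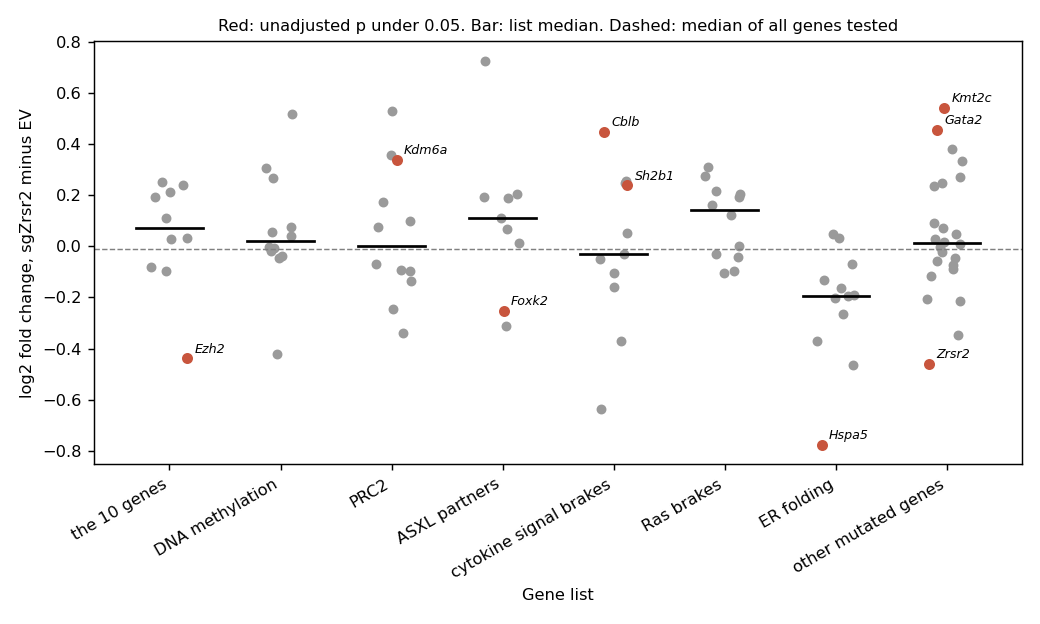
Log2 fold change (sgZrsr2 minus EV) of the 10 genes and of 7 lists of related genes, 1 point per gene tested, red where the unadjusted p was under 0.05. The list medians run from -0.19 (folding in the endoplasmic reticulum) to 0.14 (brakes on Ras), and the named genes include Ezh2, Cblb, Kmt2c and Hspa5.

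These genes varied to different degrees over the libraries. The SD of log2 CPM over the 9 libraries was 0.65 for Idh1 and 0.42 for Dnmt3a, larger than in 96.3% and 85.5% of the 9630 genes that averaged 10 CPM or more. It was 0.14 for Idh2 and 0.18 for Asxl1, larger than in 11% and 26%. The typical gene had 0.25. Tet2, Sh2b3, Asxl1 and Nf1 were each highest in EV mouse 3 with TMM scaling. With CPM from the library totals alone their highest library was sgZrsr2 mouse 1 (Tet2 and Asxl1), mouse 2 (Sh2b3) or mouse 3 (Nf1), since EV mouse 3 had the lowest TMM factor, 0.894. Profiles were compared by the root mean square difference of log2 CPM, each centred on its mean over the 9 libraries. Among the 10 genes Idh2 and Calr were the closest pair (0.09), followed by Tet2 and Sh2b3 (0.10). Both members of the first pair dipped in sgZrsr2 mouse 3, and both of the second were high in EV mouse 3 and sgZrsr2 mice 1 and 2 and lowest in EV mouse 5.

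**Figure D5:**
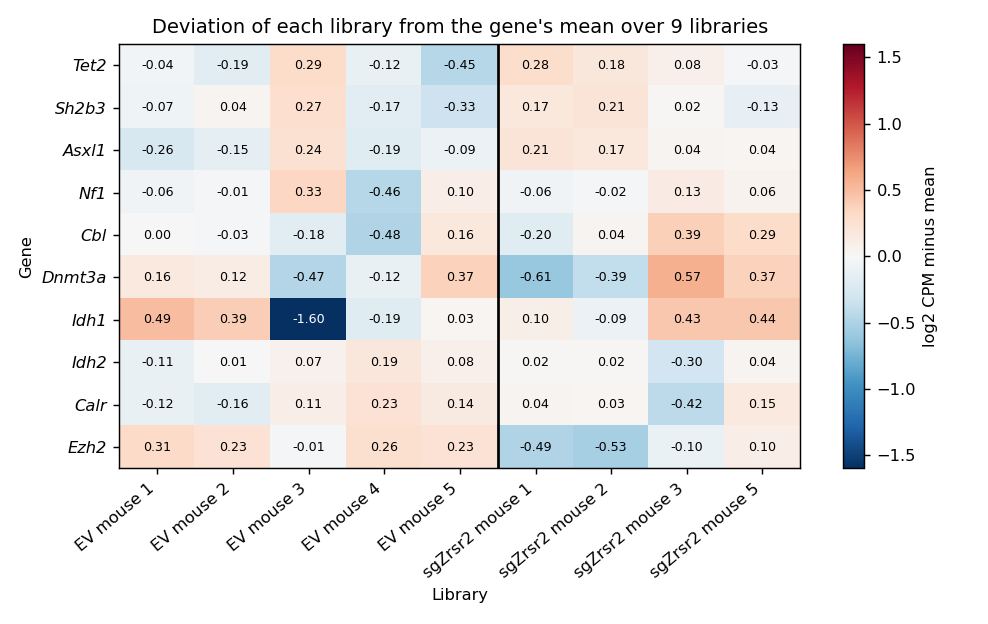
Log2 CPM of each gene and library minus the mean of the gene over the 9 libraries, red above and blue below. Idh1 in EV mouse 3 (-1.6) is the extreme value, Dnmt3a is low in EV mouse 3 and sgZrsr2 mice 1 and 2, and Ezh2 is low in sgZrsr2 mice 1 and 2.

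The genes nearest in profile were then sought for Idh1, Dnmt3a and Ezh2, the 3 with the largest SD, among 9629 others. For Idh1 they were Micall2 (difference 0.15), Mettl7a1 and Zfp952 (0.19 each). For Dnmt3a they were Ccdc97 (0.08), Snx27 and Fam53b (0.09 each). For Ezh2 they were 2410091C18Rik and Hax1 (0.09 each) and Donson (0.10). The measure covers 9 libraries that differ in depth and in the Car1 level given above.

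The summed level of 10 monocyte and dendritic cell markers was 468, 524 and 529 CPM in EV mouse 4 and sgZrsr2 mice 1 and 2, against 967 to 1276 CPM in the other 6 libraries. That of 10 neutrophil markers was 205 and 251 CPM in EV mouse 5 and sgZrsr2 mouse 3, against 29.9 to 80.3 CPM in the others. Of 10 markers of stroma 4 reached 1 CPM in any library. The summed level of the 10 was 105 to 161 CPM, most of it from Pecam1, at 104 to 155 CPM. The part of these cell markers in the low Ezh2 and Dnmt3a of sgZrsr2 mice 1 and 2 was not tested, nor was that of the low totals of these 2 libraries.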

How the data were processed

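The authors deposited RSEM expected counts per Ensembl gene, not normalized, with 1 column per library. RSEM 1.2.30, cutadapt 1.11 and the build GRCm38 are named in the submitters' processing notes. The aligner, annotation and strandedness are not given in the sources used here. Per the labels' protocols, polyadenylated RNA from 5 ng of total RNA was amplified by PCR, so reads are not independent molecules. RSEM divides reads that match several genes, and 9.78% to 13.3% of values per library were not whole. The lowest shares were those of sgZrsr2 mice 1 and 2 (9.78% and 10.1%, against 12.2% or more).

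Counts were rounded, filtered with filterByExpr (minimum count 10, minimum total 15; 99.93% of counts kept) and scaled with TMM factors (0.894 to 1.073). The groups were compared with edgeR 4.0.16 (glmQLFit, glmQLFTest; R 4.3.3) over all genes tested, with Benjamini-Hochberg adjustment. Standard errors are the log2 fold change over the square root of F. Permutation tests were exact and two-sided; their smallest possible p was 0.0159. The test was checked on simulated counts. Exon lengths came from GENCODE M21 (98.5% of tested genes matched) and promoters from RefSeq; all 10 genes had a promoter entry. Symbols not in the table were matched by gene ID.

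The genes and lists were chosen with earlier results of these data known. Named beyond the 10 were Zrsr2 and Jak2 as checks, paralogs, genes of each list with an unadjusted p under 0.05 or otherwise the smallest, and the 3 nearest profiles of the 3 most variable genes. Pdia3, Eed, Suz12, Bap1 and the cell markers were added to describe the lists. Alternatives were no filter, a CPM filter, RLE factors, DESeq2 1.42.0, limma 3.58.1 voom with quality weights, unrounded counts, the mouse number as a block, averaging or leaving out libraries.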

Additional observations from a re-analysis of the deposited data

Results flagged for a closer look

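In each group every gene of the 10 was examined for a library whose gap to its nearest neighbour took an unusual share of the group's range. Of these 20 sets 2 stood out, where chance gives about 1. Ezh2 was at 134 CPM in EV mouse 3, against 159 to 168 CPM in the other EV libraries (gap 0.746 of the range). Idh2 was at 218 CPM in sgZrsr2 mouse 3, where the remaining sgZrsr2 libraries had 272 to 276 CPM (gap 0.924 of the range).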

How the results depend on the processing

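None of the 10 genes passed the adjusted threshold in any of 9 alternatives or 9 fits without a library. Over all genes the DESeq2 Wald test called 16 and averaging sgZrsr2 mice 1 and 2 called 1; the other 7 alternatives and the 9 fits called 0. The count of genes at an unadjusted p under 0.05 was 2551 with limma-voom and quality weights (weights 0.294 for EV mouse 3 to 4.52 for EV mouse 2), 341 when mouse numbers formed a block, 1692 without EV mouse 5 and sgZrsr2 mice 3 and 5, and 609 (without EV mouse 4) to 1292 without 1 library. Among the 10 genes this count was 3 with limma-voom (Tet2, Asxl1 and Ezh2), and 1 to 3 without 1 library, the 3 without EV mouse 3. The number whose groups did not overlap was 1 (Ezh2) without EV mouse 5 and sgZrsr2 mice 3 and 5, where 23.2% of all genes did not overlap. Without 1 library this number was 0 to 3. It was 3 without EV mouse 3, where 5.4% of all genes did not overlap, and 1 without sgZrsr2 mouse 5, where 7.1% did not. In these genes the library left out was one that crossed the other group, so the counts do not test the separation. Related genes with an unadjusted p under 0.05, 8 of 92 in the main fit, numbered 22 with limma-voom, where 17.1% of all genes had such a p. They numbered 15 without those 3 libraries together, where 11% of all genes did, and 5 with the block, where 341 genes did. Without 1 library the number was 5 (without EV mouse 4 or sgZrsr2 mouse 3) to 11 (without EV mouse 3). Over all genes 609, 745 and 1102 (7.44%) had such a p in these 3 fits.

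The log2 fold change of Ezh2 kept its sign in all these fits, and an unadjusted model p under 0.05. It ran from -0.70 to -0.36 over the alternatives and from -0.57 (without sgZrsr2 mouse 5) to -0.35 (without sgZrsr2 mouse 2). The exact permutation p of Ezh2 was 0.0286 to 0.0714 without 1 library and 0.133 without the 3 libraries, where fewer samples allow fewer splits. Signs turned for 4 of the 10 genes. Dnmt3a was -0.35 with limma-voom, -0.068 with the block, -0.43 without the 3 libraries and -0.19 to 0.19 without 1 library. Idh1 was -0.14 with limma-voom. Nf1 was -0.062 with the block, -0.0068 without the 3 libraries and -0.070 to 0.12 without 1 library. Calr was 0.086 with limma-voom, 0.018 without the 3 libraries and -0.15 to 0.028 without 1 library. Fewer samples are used in fits without libraries; the other causes were not tested. With CPM from library totals alone, 5 of the 10 genes kept both their highest and their lowest library. Deviations of same-numbered mice had correlations of -0.378, -0.204 and -0.454 for mice 1, 2 and 3. For mouse 5 the correlation was positive, 0.409. The labels state no pairs, so the numbers were not taken as pairs. The mouse number as a replicate block changed no call at the adjusted threshold. These genes had 288 counts or more in every library, but the reads were amplified by PCR, so the counts do not give the counting error.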
